A study of Sus scrofa with 8 samples.

Results

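Axon guidance genes encode the signals that steer growing axons and later shape synapses, vessels and glia, and 3 of their systems were followed through the pig retina after an intravitreal viral vector: ephrins with their Eph receptors, semaphorins with plexins, and Slits with Robos. Members were taken by symbol alone, as every listed gene whose symbol begins with EFNA, EFNB, EPHA, EPHB, SEMA, PLXN, SLIT or ROBO followed by a digit or by a letter and a digit. The rule itself used no measured value, but it was chosen with earlier results of these data known. This gave 58 of the 35683 features in the files: 20 semaphorins, 9 plexins, 9 EphA and 5 EphB receptors, 5 ephrin-A and 3 ephrin-B ligands, 3 Slits and 4 Robos. Nuclei were sequenced from 8 retinas of 6 female Yucatan minipigs, 3 to 5 months old. The AAV groups had received AAV2.7m8/CAG-GFP, a capsid selected for retinal transduction that carries green fluorescent protein under the broadly active CAG promoter, and the vehicle groups the carrier fluid, in both eyes. At week 2 each group was 1 animal with both eyes sequenced, and at week 4 each group was 2 animals with the left eye of each. Every animal, vehicle included, had also been given Vitrase, a hyaluronidase, into the vitreous and methylprednisolone weekly. Each of the 4 groups carries its own batch label, which does not name the step it stands for, so batch and group cannot be told apart in any comparison below.

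Ephrins are membrane-bound ligands that activate Eph receptor tyrosine kinases on neighbouring cells, often causing repulsion, and graded EphA and EphB signalling orders the projection of retinal ganglion cells (RGCs) to the brain. Semaphorins, secreted or membrane-bound, act through plexins, the class 3 members with neuropilins as co-receptors, and in the retina they confine neurites to sublayers of the inner plexiform layer. Slits are secreted and repel growth cones through Robo receptors.

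Each retina gave between 121544835 and 173614051 unique molecular identifiers (UMIs, each standing for 1 captured transcript molecule), and 346636 of 388491 deposited barcodes were kept as nuclei. Marker genes that include no member assigned 84.87% of kept nuclei to a cell class, 13.28% stayed unassigned and 1.85% carried markers of several classes and were set aside. EGFP, the transgene, had 4358 to 11235 UMIs per AAV retina and 0 to 3 per vehicle retina. Of 368982 distinct barcode sequences, 17084 occurred in more than 1 retina. The astrocyte class held GFAP at 1035 and PAX2 at 1010 CPM (the gene's UMIs scaled to 1000000 UMIs of the class in a retina), against 54.5 and 1.47 CPM in Müller cells, but also Müller markers, with RLBP1 at 183 CPM against 676 in Müller cells. The pericyte class held endothelial markers at a summed 881 to 1049 CPM in vehicle retinas, most of it from EMCN (760.0 CPM over all 8 retinas), while CDH5 stood at 0 and CLDN5 at 0.944 CPM. Classes ranged from 8216 to 26101 rods per retina down to 114 to 203 RGCs, 15 to 105 pericytes, 6 to 223 RPE and 3 to 52 endothelial nuclei, so values for the small classes rest on few UMIs, which are given where low.

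In vehicle retinas the cell classes differed in the guidance genes they held. In 33 of the 58 members every animal of the highest class lay above those of the next class, and in 25 the ranges met. The share of all genes with such a gap is not given here. RGCs led in EPHB1 and EPHA6, amacrine cells in SLIT1 and EPHA8, bipolar cells in EPHA7, astrocytes in SEMA5B and EPHB4, Müller cells in EFNA1, the retinal pigment epithelium (RPE) in SEMA3C, and rods in ROBO2. Each class was compared with the mean of the other classes on the log scale by edgeR's quasi-likelihood test, with 3 animals as a block, and a gene was called where the Benjamini-Hochberg adjusted p was under 0.05 and the difference at least 2-fold. Of 594 tests of members, 171 were called higher, or 28.8%, against 16.9% of tests over all genes. The 54 members with enough counts to test were each called in at least 1 class, against 73.3% of the 20830 genes tested, and EFNA4, EPHA1, PLXNB3 and SEMA3G did not pass the filter on low counts. Of these, 4 members were called in 1 class, 12 in 2 classes and 19 in 3 classes, while SEMA4G was called in 7 classes, among them rods and cones, where its sign turned with clusters in place of the gate. In each class 54 members were tested. Amacrine cells had 31 calls of members, or more than any other class in number, with a background of 23.7% of all genes. RGCs followed with 29 calls (background 22%), Müller cells and astrocytes with 23 each (20.6% and 19.1%), horizontal cells with 17 (15.5%), bipolar cells with 13 (20.9%) and rods with 10 (18.1%). Cones and RPE had 7 each (16.9% and 12.8%), pericytes 6 (7.37%) and the microglia and macrophage class 5 (8.49%). Among the 54 members tested, the share called was near the background in rods, RPE and the microglia and macrophage class. In cones it was below the background. With DESeq2 the count was 5 in rods, 4 in cones and 11 in pericytes, and with its size factors in edgeR 5, 4 and 8. The shares over all genes in those settings are not given here, so these counts stand without a background. In the other direction, 109 tests of members were called lower in the main edgeR fit, or 18.4%, against 7.36% over all genes. Lower calls per class are given for this fit only, not for the alternatives. Lower calls outnumbered higher ones in pericytes (16, background 10.4%), the microglia and macrophage class (15, 11.2%), cones (14, 7.76%), rods (13, 7.47%) and RPE (11, 9.03%). The lower calls were fewer than the higher ones in horizontal cells (12, 9.05%), bipolar cells and astrocytes (9 each, 4.65% and 5.75%), Müller cells (4, 2.55%) and amacrine cells and RGCs (3 each, 5.08% and 7.93%). Levels below are compared for the same gene between classes or samples only. Each adjusted p given for a class in vehicle retinas is for that class against the mean of the others. No class was tested against the next one.

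**Figure D1:**
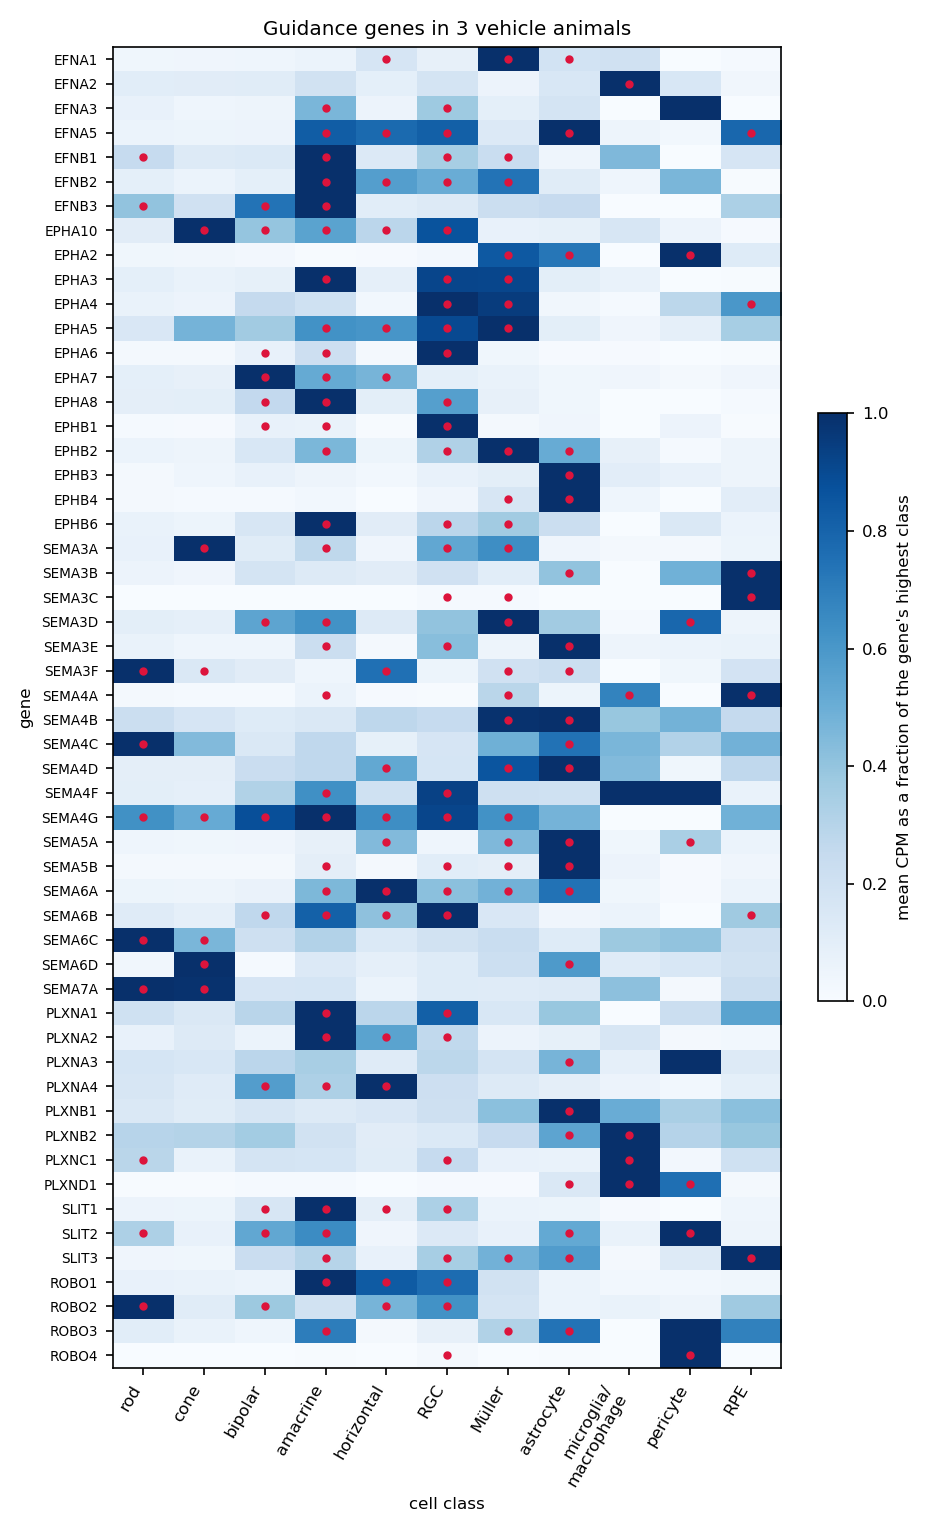
Heat map of the 54 tested guidance genes (rows) in 11 cell classes (columns) of 3 vehicle animals. Colour gives the mean CPM as a fraction of the gene's highest class, and a red dot marks a class called higher than the mean of the others, of which there are 171.

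Among Eph receptors, EPHB1, the receptor that turns axons of ventrotemporal RGCs away from the optic chiasm, measured 396.8 CPM in RGCs of the week 2 vehicle animal and 398.0 and 406.0 CPM in those of the week 4 animals. The mean of 400.3 ± 5.00 CPM (SD, n = 3 animals) was 13.6-fold that of the next class, bipolar cells at 29.5 ± 11.8 CPM. No animal of either class overlapped, and RGCs were called against the mean of the other classes (edgeR adjusted p = 9.23e-27). EPHA6, an EphA receptor of the mapping system, measured 2506, 2359 and 2544 CPM in RGCs, with amacrine cells next at 524 ± 43.4 CPM (adjusted p = 4.72e-31). EPHA3 had no single leading class: its means of 107 ± 16.3 CPM in amacrine cells, 97.4 ± 5.46 in RGCs and 97.3 ± 2.20 in Müller cells overlapped, although each was called against the mean of the other classes. EPHA7 led in bipolar cells at 412, 400 and 370 CPM, with amacrine cells next at 204 ± 4.48 CPM (adjusted p = 1.57e-28). EPHA8 led in amacrine cells at 13.1, 16.1 and 14.2 CPM, and RGCs at 8.16 ± 3.03 CPM came next (adjusted p = 1.01e-14). EPHA10, a receptor without kinase activity, was highest in cones at 18.3, 20.0 and 22.9 CPM (adjusted p = 3.11e-21 against the mean of the other classes). RGCs came close below at 17.6 ± 0.305 CPM, and this gap was not tested.

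The glia held a different set. EPHB4, known as the venous receptor for ephrin-B2, measured 16.0, 21.9 and 22.4 CPM in astrocytes, with Müller cells next at 3.15 ± 0.0758 CPM (adjusted p = 1.51e-18). EFNA1, the preferred ligand of EPHA2, measured 13.3, 14.5 and 13.95 CPM in Müller cells, and the microglia and macrophage class came next at 2.77 ± 4.79 CPM (adjusted p = 2.68e-19). EPHA2 itself was called in Müller cells at 5.34, 23.0 and 11.8 CPM and in astrocytes at 11.8, 8.94 and 13.97 CPM, so the animals differed more than the classes did. EPHA2 was also called in pericytes at 10.7, 15.4 and 21.6 CPM, from 8 UMIs in all, and this call was lost without 1 week 4 animal (adjusted p = 0.0831). EFNB3 was called in bipolar cells at 2.28 ± 0.542 CPM, below amacrine cells at 3.09 ± 0.355 CPM. EFNA2 in the microglia and macrophage class rested on 6 UMIs (8.33, 9.78 and 16.6 CPM) and was lost without the week 2 animal (adjusted p = 0.0808).

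Of the 19 semaphorins tested, 11 were called higher and 0 lower in Müller cells, and 10 and 1 in astrocytes. The counts were 9 and 1 in amacrine cells, 8 and 1 in RGCs, 6 and 5 in horizontal cells and 4 and 3 in RPE. Lower calls were as many or more in cones (6 and 6), rods (5 and 7) and bipolar cells (3 and 6). The same held in pericytes (2 and 5) and the microglia and macrophage class (1 and 5). The shares over all genes in each class are given above. SEMA3C, a secreted ligand also known from vascular and cardiac outflow development, measured 381, 309 and 480 CPM in RPE, and its mean of 390.0 ± 85.8 CPM was 68.2-fold that of Müller cells, the next class at 5.72 ± 2.47 CPM (adjusted p = 2.27e-29). SEMA4A, a transmembrane semaphorin with roles in photoreceptor survival and immune cells, measured 67.3, 96.8 and 79.96 CPM in RPE and 55.2 ± 11.6 CPM in the microglia and macrophage class, and both were called. SEMA3B was also called in RPE, from 14 UMIs (6.12, 9.22 and 3.08 CPM), a call that ended without the week 2 animal (adjusted p = 0.170). SEMA5B, which together with SEMA5A keeps inner retinal neurites out of the outer retina in mouse, measured 309, 304 and 351 CPM in astrocytes, 9.23-fold the level in RGCs (34.8 ± 2.09 CPM, adjusted p = 9.15e-30). SEMA5A, too, was highest in astrocytes, at 2743 ± 202 CPM. SEMA3A, the collapsing factor that signals through neuropilin-1 and A-type plexins, was highest in cones at 459, 409 and 318 CPM, with Müller cells next at 253 ± 28.9 CPM (adjusted p = 1.56e-26). SEMA6D also led in cones, at 206, 234 and 191 CPM, with astrocytes at 123 ± 15.2 CPM. SEMA3F, a neuropilin-2 ligand, measured 43.9, 57.4 and 44.9 CPM in rods and 36.6 ± 9.93 CPM in horizontal cells, whose ranges met. SEMA7A, the GPI-anchored ligand of plexin C1, stood at 61.3 ± 2.33 CPM in rods and 60.8 ± 3.99 CPM in cones, which did not differ beyond their spread. SEMA6A, a transmembrane ligand of plexins A2 and A4, was highest in horizontal cells at 552, 578 and 491 CPM, with astrocytes at 403 ± 84.5 CPM.

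Among plexins, the semaphorin receptors, PLXNA4 was highest in horizontal cells at 865 ± 20.5 CPM and PLXNA2 in amacrine cells at 296 ± 5.84 CPM, both A-type plexins for class 3 and class 6 semaphorins. PLXNC1, the receptor for SEMA7A, was highest in the microglia and macrophage class at 173 ± 61.8 CPM. PLXND1, the endothelial receptor for SEMA3E, was called in the microglia and macrophage class from 18 UMIs (32.0 ± 16.2 CPM) and in pericytes from 14 UMIs (24.2 ± 8.52 CPM).

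In the Slit system, SLIT1 measured 78.4, 74.1 and 95.1 CPM in amacrine cells, with RGCs next at 27.4 ± 4.602 CPM (adjusted p = 3.69e-26), SLIT2 was highest in pericytes at 1357 ± 183 CPM and SLIT3 in RPE at 889 ± 121 CPM. ROBO2 measured 14290, 11840 and 10480 CPM in rods (adjusted p = 7.88e-22 against the mean of the other classes). RGCs came next at 7617 ± 345 CPM. ROBO1 measured 1853, 2357 and 1924 CPM in horizontal cells, a call against the mean of the other classes, while amacrine cells were higher still at 2453 ± 211 CPM. These neighbouring genes lie on chromosome 13 of Sscrofa11.1, ROBO1 at chr13:175348223-176479482 on the plus strand and ROBO2 at chr13:177365712-179040027 on the minus strand. ROBO4, the endothelial Robo, was called in pericytes at 31.9, 30.9 and 32.4 CPM from 17 UMIs. Endothelial nuclei, too few to test, held ROBO4 at 217 to 269 CPM in the 4 vehicle retinas, from 2 to 20 UMIs each.

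**Figure D2:**
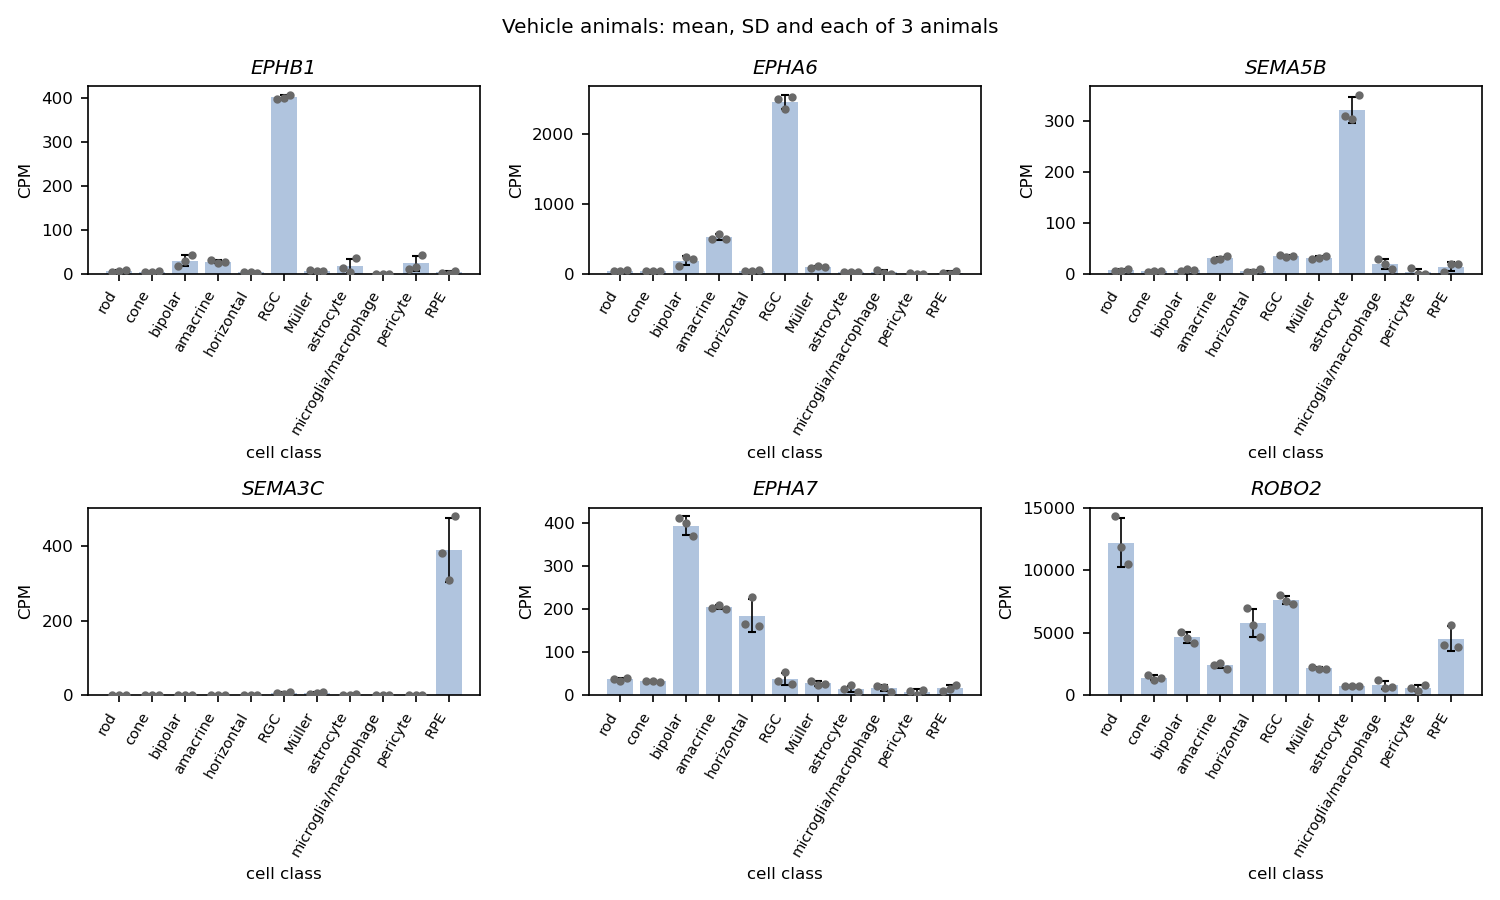
Levels of 6 guidance genes in CPM (vertical axes) across 11 cell classes of vehicle retinas, with bars for the mean, whiskers for the SD and points for the 3 animals. EPHB1 and EPHA6 stand out in RGCs, SEMA5B in astrocytes, SEMA3C in RPE, EPHA7 in bipolar cells and ROBO2 in rods, followed by RGCs.

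Within the amacrine and bipolar classes, nuclei were further divided by markers, and the levels over the 3 vehicle animals are given as description, for members chosen after their values were seen. Starburst amacrine cells, the cholinergic neurons of direction selectivity, held PLXNA2 at 765, 713 and 830 CPM, against 277 ± 13.1 CPM in the GABAergic and 131 ± 1.34 CPM in the glycinergic amacrine nuclei. Its ligand gene SEMA6A measured 243 ± 13.5 CPM in starburst, 290 ± 18.9 CPM in GABAergic and 81.0 ± 25.8 CPM in glycinergic nuclei. This pair shapes starburst dendrites in mouse. Starburst nuclei were also high in SEMA3A (461 ± 33.5 CPM against 96.4 ± 13.0 in GABAergic nuclei), SEMA3D (351 ± 14.6 CPM) and EPHB6, a receptor without kinase activity (48.5 ± 5.50 CPM against 10.0 ± 0.691 in GABAergic nuclei). EPHA3 was higher in GABAergic than in glycinergic nuclei, at 128 ± 22.7 against 26.3 ± 6.08 CPM, and EPHA8 lay the other way, at 11.5 ± 0.515 against 33.7 ± 1.31 CPM.

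Among bipolar subclasses, ROBO2 measured 7840 ± 651 CPM in ON cone bipolar, 4462 ± 615 CPM in rod bipolar and 1346 ± 100 CPM in OFF cone bipolar nuclei, with no overlap between animals of neighbouring subclasses. SLIT3 measured 524 ± 122 CPM in rod bipolar nuclei and 13.2 ± 1.69 CPM in OFF cone bipolar nuclei. OFF cone bipolar nuclei held SLIT2 at 1330 ± 136 CPM, near the 1172 ± 112 CPM of GABAergic amacrine nuclei, and glycinergic nuclei held 43.0 ± 11.3 CPM. PLXNA4 separated OFF from ON cone bipolar nuclei, at 1021 ± 106 against 111 ± 8.61 CPM.

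At week 4, AAV retinas were compared with vehicle retinas, 2 animals each, in the 9 classes with at least 30 nuclei in every retina. SEMA3D rose in astrocytes, SEMA3B, EFNA1 and PLXNB2 rose in Müller cells, PLXNC1 rose in the microglia and macrophage class, and the ephrins, Ephs and semaphorins called in rods mostly fell. Of 379 tests of members with edgeR, 19 were called higher (5.01%, against 4.43% over all genes) and 27 lower (7.12%, against 3.65%). These 46 calls fell on 30 of the 53 members tested, 13 of them higher and 19 lower in some class and 2 in both directions. Over all genes tested, 29.2% were called in at least 1 class, 15.9% higher and 14.9% lower, a share that also depends on how many classes a gene was tested in. The AAV and vehicle retinas did not overlap in the 46 calls, which was also so in 11710 of 11712 calls over all genes. Müller cells, rods and astrocytes held the most calls of members, as they did over all genes. When each retina was left out in turn, 18 of the 46 calls were kept throughout. With all 6 animals and week as a term, a fit of the AAV difference shared by both weeks, 2 members were called higher (SEMA3B in Müller cells, adjusted p = 0.0173, and PLXNC1 in the microglia and macrophage class, 0.00395) and 3 lower (EPHA3 in RGCs, 0.0127, SEMA5B in astrocytes and SEMA4C in Müller cells). Of the 46 calls, EFNA1 in astrocytes, SEMA6D in the microglia and macrophage class and PLXND1 in rods did not pass the low-count filter of that fit, and the calls other than these 8 ended in it. The vehicle retinas here are among those of the class comparison above, so the comparisons are not independent.

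In rods 5 of 52 members rose and 12 fell, with 6.37% and 6.48% of all genes called, and the median log2 change of members was -0.50 against 0.02 over all genes. In Müller cells 5 of 49 rose and 6 fell, with backgrounds of 11.3% and 11.2%, and in astrocytes 4 of 36 rose and 3 fell, with backgrounds of 7.77% and 7.21%. The microglia and macrophage class had 3 of 28 higher and 2 lower (5.32% and 3.33%), and RGCs 1 of 39 higher and 3 lower (1.81% and 0.595%). Cones had 1 of 46 higher (1.39%) and none lower (0.78%), and horizontal cells 1 of 30 lower (1.29%) and none higher (2.58%). No member was called by edgeR in bipolar (0 of 48, backgrounds 1.74% and 0.797%) or amacrine cells (0 of 51, backgrounds 1.9% and 0.69%). There, 13 members in bipolar and 8 in amacrine cells had an unadjusted p under 0.05 (27.1% and 15.7%, against 18.2% and 17.5% of all genes). DESeq2 called 1 higher in each (2.08% and 1.96%, against 2.18% and 1.81% of all genes). Without AAV replicate 1, 2 members were higher and 7 lower in bipolar cells (4% and 14%, against 4.35% and 4.23% of all genes) and 2 higher and 6 lower in amacrine cells (4.08% and 12.2%, against 2.49% and 1.82%). The same setting, which leaves 1 AAV retina, gave more members lower than higher in cones and horizontal cells. The lower share of members was above that of all genes in both. Without the low-count filter, 4 were higher and 3 lower in amacrine cells (6.9% and 5.17%, against 3.14% and 2.19%), and clusters gave 2 higher (3.85%, against 2.05%). Without AAV replicate 2, 5 were higher and 4 lower in bipolar cells (10% and 8%, against 3.75% and 2.85%). DESeq2 gave 3 higher and 3 lower in cones (6.52% each, against 1.92% and 1.94% of all genes). In horizontal cells it gave 0 higher and 3 lower (0% and 10%, against 1.96% and 0.948%). The counts in rods depended on single retinas, in fits that leave 1 retina in a group. Fewer members were called without either vehicle replicate or without AAV replicate 2, and more were called lower without AAV replicate 1. The shares over all genes moved in the same directions. With all 6 animals no member was called in rods by edgeR (7 members at an unadjusted p under 0.05, 13.5% against 9.72% of all genes), so the rod calls tested there, ROBO2 included (0.531), ended.

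**Figure D3:**
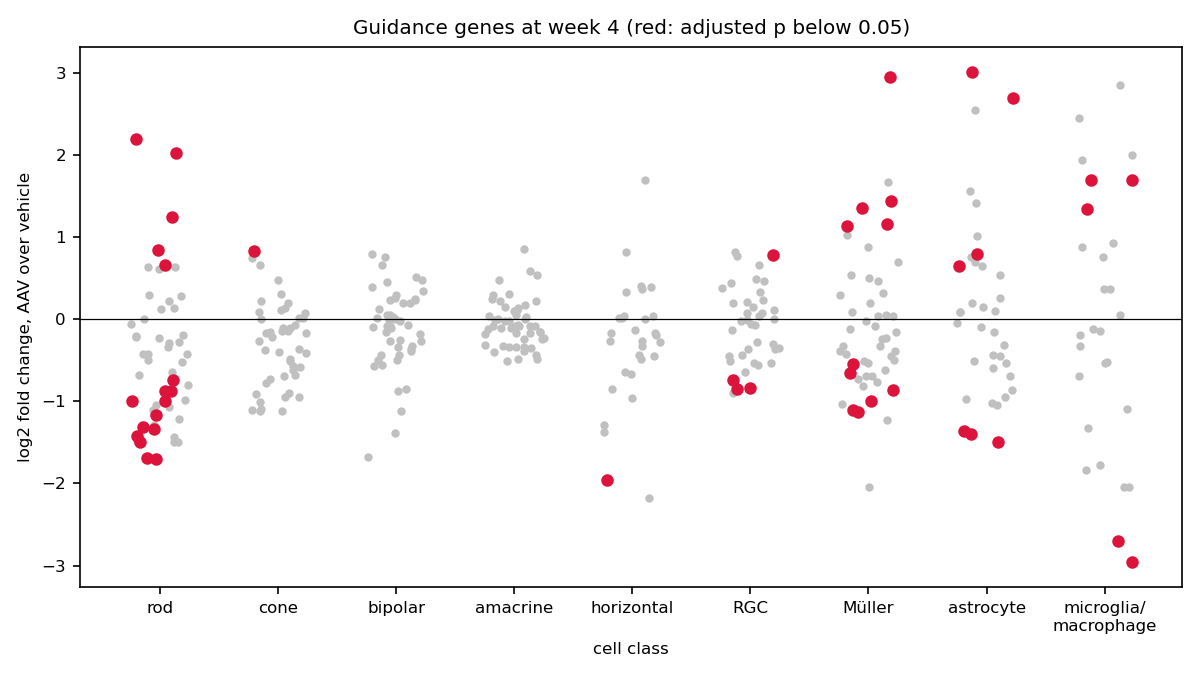
Log2 fold change of AAV over vehicle at week 4 (vertical axis) for each tested guidance gene in 9 cell classes, 1 point per gene. Red points passed an adjusted p of 0.05 in edgeR, 46 in all, and the grey points of rods lie mostly below 0.

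In Müller cells, SEMA3B, a secreted semaphorin, measured 4.93 and 5.33 CPM in AAV and 0.691 and 0.600 CPM in vehicle retinas, from 43, 19, 9 and 8 UMIs, a log2 change of 2.95 ± 0.38 (SE, adjusted p = 0.00172). PLXNB2, a receptor for class 4 semaphorins, measured 33.6 and 28.3 against 11.7 and 12.7 CPM (log2 1.35 ± 0.17, adjusted p = 0.00136). EFNA1 measured 33.6 and 29.7 against 14.5 and 13.95 CPM (log2 1.16 ± 0.16, adjusted p = 0.00212). With all 6 animals the adjusted p was 0.0173 for SEMA3B, 0.0737 for PLXNB2 and 0.190 for EFNA1, so only the call for SEMA3B was kept among these. EFNB1, a transmembrane ephrin that binds EphB receptors, measured 4.81 and 3.92 against 1.23 and 2.03 CPM (log2 1.44 ± 0.38, adjusted p = 0.0304), a call lost without AAV replicate 1 (0.151) or vehicle replicate 1 (0.134) and with DESeq2 (0.113). The fifth member that rose was PLXNA2 (log2 1.14). SEMA4B, SEMA4C, SEMA4D, SEMA6A, SEMA6D and EPHB2 fell, by 0.55 to 1.13 on the log2 scale. SEMA6D, a plexin A1 and A4 ligand, measured 20.8 and 26.1 against 54.1 and 46.7 CPM (log2 -1.13 ± 0.17, adjusted p = 0.00358). SEMA4C, a ligand of plexin B2, measured 5.73 and 5.33 against 10.4 and 13.5 CPM, so it fell where its receptor gene rose. Other markers moved in the same nuclei: summed rod markers were 881 and 690 CPM in AAV against 1716 and 1920 in vehicle Müller cells, Müller markers 5112 and 4917 against 7320 and 7557, and astrocyte markers 164 and 142 against 49.4 and 86.5. The class held 1711 and 665 nuclei in AAV against 5395 and 6009 in vehicle retinas, with 5103 and 5365 UMIs per nucleus against 2413 and 2218. Their part in these results was not tested.

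The 250 bases before the RefSeq start of SEMA3B and PLXNB2, which rose in Müller cells, are shown on the gene's strand in Sscrofa11.1 as examples chosen after their values were seen. They are chr13:32736850-32737099 (plus strand) for SEMA3B and chr5:390097-390346 (plus strand) for PLXNB2. Capitals mark matches to the consensus bound by NF-kB, searched on both strands as GGG, then any 5 bases, then CC.
SEMA3B: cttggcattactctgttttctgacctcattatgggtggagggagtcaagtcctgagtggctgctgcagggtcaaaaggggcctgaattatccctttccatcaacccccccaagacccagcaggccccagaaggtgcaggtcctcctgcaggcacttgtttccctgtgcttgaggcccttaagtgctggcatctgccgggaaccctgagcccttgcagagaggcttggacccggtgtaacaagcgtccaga
PLXNB2: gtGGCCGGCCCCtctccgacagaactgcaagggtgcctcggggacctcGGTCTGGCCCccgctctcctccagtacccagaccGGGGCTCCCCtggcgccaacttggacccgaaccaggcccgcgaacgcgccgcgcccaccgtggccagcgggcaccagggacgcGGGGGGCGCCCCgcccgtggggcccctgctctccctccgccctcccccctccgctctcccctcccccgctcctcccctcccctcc
PLXNB2 held 6 such matches, counted at every start so that some overlap within 1 capitalised stretch, and SEMA3B none. Among other members that rose there, EFNB1 held 0 and PLXNA2 held 2. The motif is a common one: 59.2% of 19500 promoter windows of this length held it, and 33 of the 58 members (56.9%). The interferon response element, searched on both strands as TTTC, any 2 bases and TTTC, was found in 1 member (1.72%) against 2.99% of all windows, and the STAT site, searched as TTC, any 3 bases and GAA, in 6 members (10.3%) against 6.1%. Neither of these last motifs was found in the windows shown.

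In astrocytes, SEMA3D, a secreted semaphorin, measured 215 and 204 CPM in AAV against 20.9 and 32.1 CPM in vehicle retinas, a log2 change of 3.02 ± 0.22 (adjusted p = 0.000159). With all 6 animals the change was 1.85 and the call was lost (0.260), the week 2 eyes lying the other way as given further on. EFNA1 measured 13.1 and 13.0 against 0.993 and 2.79 CPM, from 32, 19, 1 and 4 UMIs (log2 2.70 ± 0.53, adjusted p = 0.0120), and the call was lost without AAV replicate 1 (0.0573) and with DESeq2 (0.0682). SLIT2 rose from 716 and 731 to 1209 and 1189 CPM (log2 0.80), and PLXNA4 was the fourth member that rose (log2 0.66). The class 5 semaphorins that marked astrocytes in vehicle retinas fell. SEMA5B measured 117 and 120 against 304 and 351 CPM (log2 -1.40 ± 0.16, adjusted p = 0.00112), and SEMA5A measured 1113 and 857 against 2522 and 2790 CPM (log2 -1.36 ± 0.16, adjusted p = 0.00143). SEMA4C measured 5.72 and 7.52 against 18.9 and 19.6 CPM (log2 -1.49 ± 0.36, adjusted p = 0.0279), a call lost without AAV replicate 1 (0.137) or vehicle replicate 2 (0.105). The astrocyte class itself also moved, with summed astrocyte markers of 1719 and 1791 CPM in AAV against 2783 and 2461 in vehicle retinas and Müller markers of 3472 and 2907 against 4693 and 3906, and its nuclei held a mean of 10075 and 11080 UMIs against 4749 and 4919. Other summed markers moved in these nuclei too, among them endothelial markers at 298 and 264 against 918 and 724 CPM. Amacrine markers were 101 and 86.8 against 288 and 249 CPM, and bipolar markers 239 and 227 against 644 and 541 CPM. RGC markers were higher, at 292 and 302 against 191 and 215 CPM. The part of all this in the results was not tested.

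In RGCs 3 receptor genes and 1 ligand gene were called. EPHA4, an Eph receptor that binds ephrins of both classes, measured 269 and 247 CPM in AAV against 134 and 178 CPM in vehicle retinas (log2 0.78 ± 0.14, adjusted p = 0.00907). EPHA3 measured 43.8 and 61.1 against 103 and 92.5 CPM (log2 -0.85 ± 0.17, adjusted p = 0.0180), a call lost without AAV replicate 1 (0.0877). SLIT3 measured 156 and 182 against 306 and 320 CPM (log2 -0.84 ± 0.12, adjusted p = 0.00130), and the fourth call was PLXNA4, which was lower (log2 -0.74). EPHB1 and EPHA6, which marked RGCs in vehicle retinas, were not called (log2 changes of 0.0022 ± 0.10 and 0.15 ± 0.12). Summed RGC markers overlapped between the groups, at 1732 and 1614 against 1659 and 1604 CPM. Others did not: amacrine markers were 28.1 and 37.3 against 61.5 and 56.7 CPM, rod markers 209 and 234 against 300.2 and 310 CPM, Müller markers 139 and 111 against 175 and 157 CPM, and B and plasma cell markers 25.6 and 36.1 against 14.2 and 13.3 CPM. EPHA3 was also high in amacrine cells, and the part of these markers in the results was not tested.

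In the microglia and macrophage class, the gate held 63 and 68 nuclei in vehicle and 1296 and 811 in AAV retinas at week 4. Of these, 22 and 27 vehicle and 1108 and 733 AAV nuclei also lay in a microglia and macrophage cluster, and nearly all others lay in clusters without a name. PLXNC1 measured 620 and 570 CPM in AAV against 235 and 174 CPM in vehicle retinas (log2 1.70 ± 0.23, adjusted p = 0.000517). In the nuclei that gate and cluster both named, a setting chosen after seeing the data and too small to test, it measured 658 and 593 against 347 and 162 CPM, the vehicle values from 16 and 10 UMIs. SEMA4A rose as well, from 68.5 and 49.8 to 149 and 121 CPM (log2 1.35, adjusted p = 0.0352). In the nuclei named by both, its vehicle values were 65.1 and 32.3 CPM, from 3 and 2 UMIs, against 156.5 and 127.8 CPM in AAV. PLXNB2 measured 6.51 and 6.92 against 39.1 and 74.7 CPM (log2 -2.96 ± 0.57, adjusted p = 0.00612), but the vehicle values rest on 4 and 9 UMIs and the call was lost without vehicle replicate 2 (0.170). SEMA6D measured 4.34 and 2.91 against 39.1 and 16.6 CPM, the vehicle values from 4 and 2 UMIs (log2 -2.70 ± 0.74, adjusted p = 0.0416), and was lost without vehicle replicate 1 (0.481) or replicate 2 (0.123). In the nuclei named by both, SEMA6D had 0 UMIs in either vehicle retina and PLXNB2 had 3 and 2. The class's summed B and plasma cell markers were 1920 and 2119 CPM against 97.8 and 99.6. Over all 8 retinas together, BANK1 stood at 1637, IGHM at 39.8, JCHAIN at 33.9 and MS4A1 and CD79A each at 0.263 CPM. These pooled levels do not separate AAV from vehicle retinas. Astrocyte markers were 31.5 and 5.10 against 244.5 and 58.1 CPM, and Müller markers 397 and 340 against 626 and 797 CPM. T and NK markers were higher, at 157 and 266 against 48.9 and 83.0 CPM. The part of these markers and of the unequal nuclei numbers in the results was not tested.

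In rods, SEMA6A measured 11.5 and 6.495 CPM in AAV against 24.7 and 37.0 CPM in vehicle retinas (log2 -1.70 ± 0.30, adjusted p = 0.0199), and its call was lost without vehicle replicate 2 (0.0919). The other 11 that fell were EFNA5, EFNB2, EPHA7, EPHA10, EPHB2, ROBO1, SEMA3E, SEMA4C, SEMA5A, SEMA6D and SLIT1, by 0.74 to 1.69 on the log2 scale. Markers of several other classes were also lower in rods of AAV retinas: summed Müller markers were 134 and 126 against 319 and 374 CPM, bipolar markers 675 and 525 against 1189 and 1491 CPM, and rod markers 15950 and 14260 against 20110 and 20100 CPM. Immune markers were higher there: summed B and plasma cell markers were 80.3 and 95.0 against 25.2 and 28.5 CPM, T and NK markers 38.7 and 26.7 against 8.24 and 8.72 CPM, and microglia and macrophage markers 45.7 and 32.7 against 25.7 and 23.1 CPM. The part of these markers in the results for rods was not tested. SEMA3B rose from 0.248 and 0.404 to 1.28 and 1.43 CPM (log2 2.20 ± 0.40, adjusted p = 0.0220), with the call lost in 3 of 4 leave-outs (0.0524 to 0.126). PLXND1 rose from 0.142 and 0.173 to 0.743 and 0.477 CPM (log2 2.03 ± 0.51, adjusted p = 0.0488), with the call lost in every leave-out (0.0823 to 0.239). The vehicle values of SEMA3B and PLXND1 in rods rest on few UMIs. PLXNB2 and PLXNC1 rose by log2 0.66 and 0.85.

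**Figure D4:**
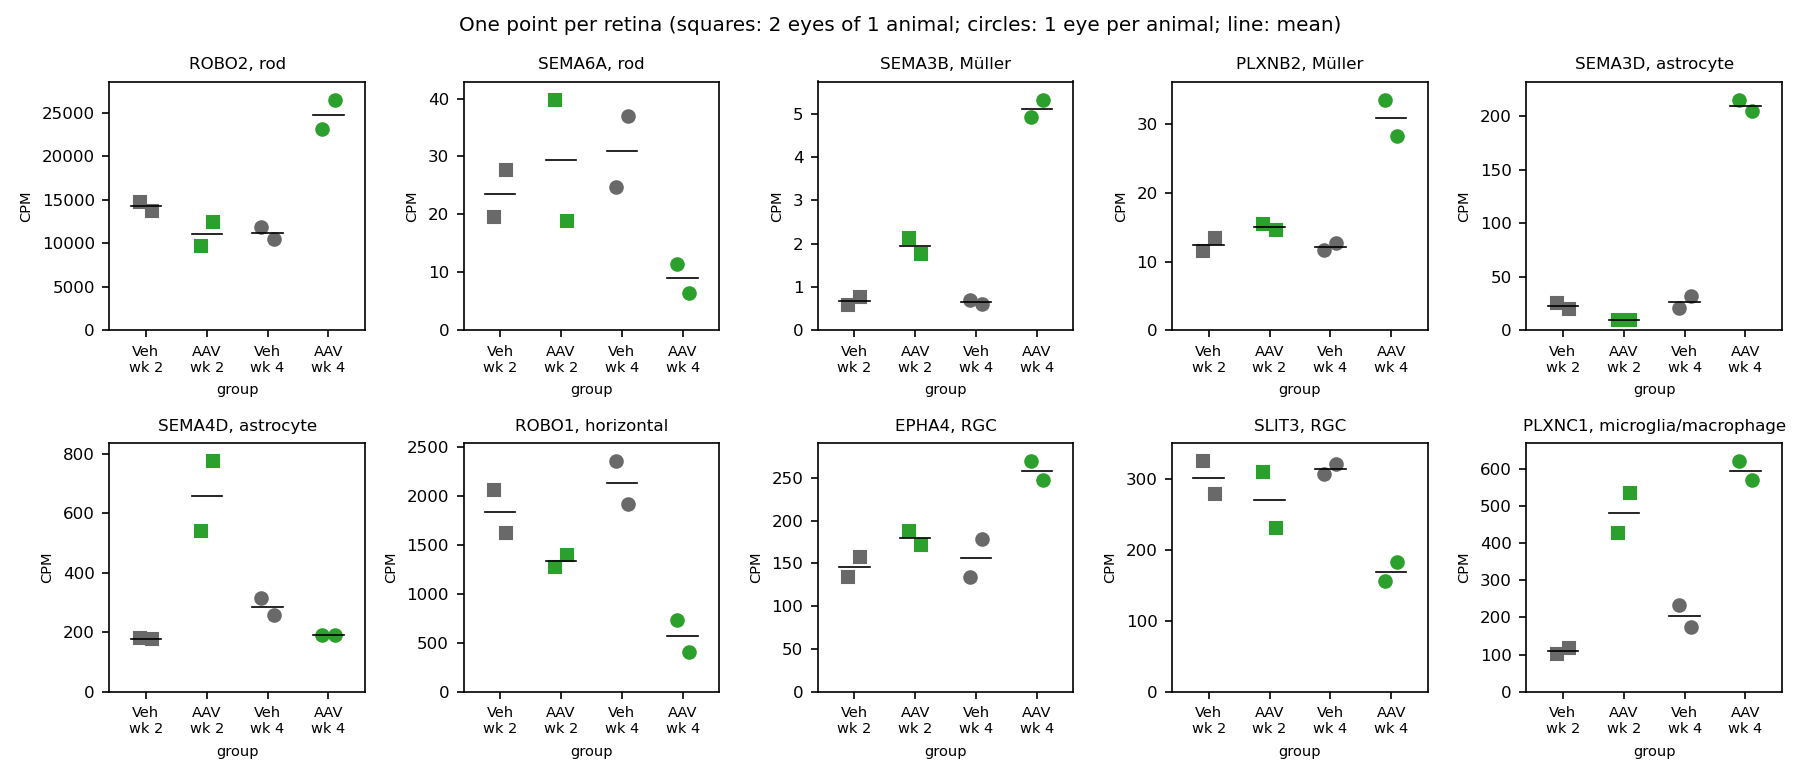
Levels in CPM (vertical axes, from 0) of 10 pairs of guidance gene and cell class in each of the 8 retinas, with squares for the 2 eyes of a week 2 animal, circles for the week 4 animals and a line for the mean. SEMA3D in astrocytes stands above 200 CPM in both week 4 AAV retinas and below 33 CPM in the other retinas.

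At week 4, ROBO1 was called lower in horizontal cells and rods. ROBO2 was called higher in rods, cones and the microglia and macrophage class. None of these calls was kept with all 6 animals. ROBO1 in horizontal cells measured 731.9 and 407.5 CPM in AAV against 2357 and 1924 CPM in vehicle retinas (log2 -1.96 ± 0.27, adjusted p = 0.00589), and it missed the threshold without the low-count filter (0.0739) and with all 6 animals (0.0653). At week 2 the same gene measured 1280 and 1397 CPM in the AAV eyes and 2062 and 1622 CPM in the vehicle eyes. Horizontal nuclei of week 4 AAV retinas held summed bipolar markers of 1425 and 1816 CPM against 562 and 1413, and amacrine markers of 784 and 791 CPM against 576 and 602, and their part was not tested. ROBO2 in rods measured 23140 and 26500 CPM in AAV against 11840 and 10480 CPM in vehicle retinas (log2 1.25 ± 0.13, adjusted p = 0.00526), more than any other member in UMIs. At week 2 the rods of the AAV eyes held 9652 and 12440 CPM and those of the vehicle eyes 14790 and 13710 CPM, so the order was the other way. ROBO2 was called higher in cones as well, at 2227 and 2197 against 1221 and 1362 CPM (log2 0.83 ± 0.12, adjusted p = 0.0201), although the call was lost without AAV replicate 2 (0.0547) or vehicle replicate 1 (0.0704). In the microglia and macrophage class it measured 1619 and 2159 against 597 and 689 CPM (log2 1.70 ± 0.22, adjusted p = 0.000378), and 1293 and 1666 against 282 and 258 CPM in the nuclei that gate and cluster both named.

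Because ROBO2 is so abundant in rods, its UMIs were set against those of 11 rod markers in the same nuclei. Rods held 1.45 and 1.86 ROBO2 UMIs per rod marker UMI in AAV and 0.589 and 0.522 in vehicle retinas. In the microglia and macrophage class the ratio was 1.51 and 1.91 in AAV and 0.321 and 0.390 in vehicle retinas, which for the AAV retinas is close to the ratio in rods of the same retina. T and NK nuclei of the AAV retinas gave 1.64 and 1.78, while the week 4 vehicle retinas held 1 such nucleus each, too few to compare. Rod markers themselves summed to 1072 and 1128 CPM in microglia and macrophages of AAV retinas and to 1858 and 1768 CPM in those of vehicle retinas. Astrocytes gave 1.36 and 1.54 against 0.667 and 0.587. Müller cells gave 2.01 and 2.32 against 1.22 and 1.10, above the rods of their own retinas, and cones 0.496 and 0.535 against 0.216 and 0.204, below them. The source of these ratios was not tested.

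**Figure D5:**
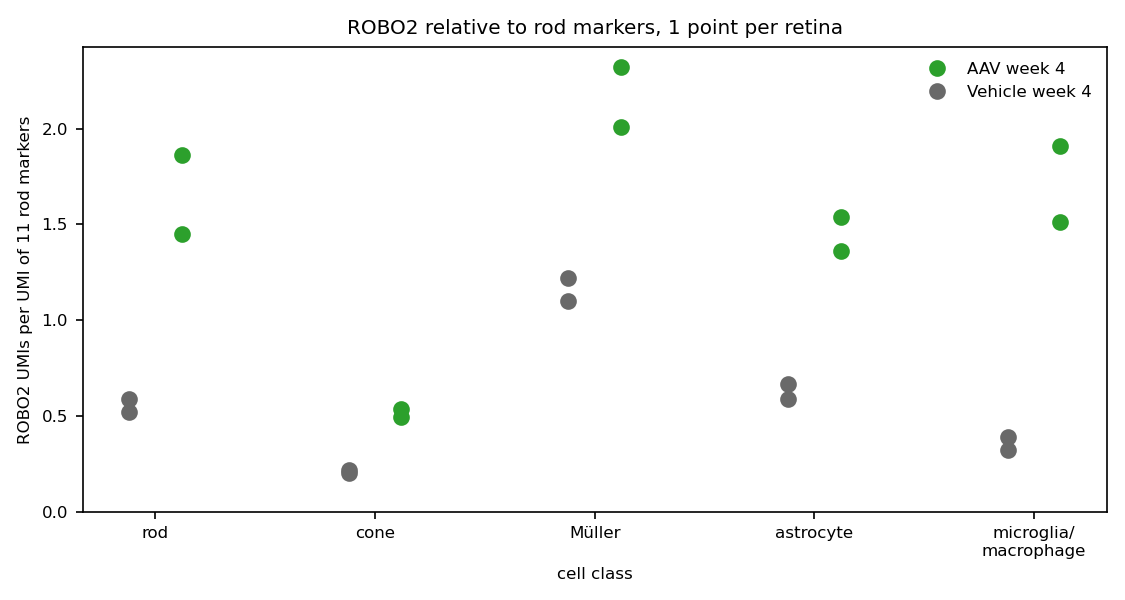
UMIs of ROBO2 per UMI of 11 rod marker genes (vertical axis) in 5 cell classes at week 4, 1 point per retina, green for AAV and grey for vehicle. AAV retinas lie above vehicle retinas in each class shown, and in the microglia and macrophage class the AAV points lie at 1.51 and 1.91, near the 1.45 and 1.86 of rods.

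At week 2 each group was 1 animal, so values of the eyes are given without a test. EPHA2, the receptor of EFNA1, stood higher in the AAV animal in several classes at once. A member was listed where the summed eyes differed at least 2-fold, the eyes did not overlap and at least 10 UMIs were counted, which held for 33 of 494 higher (6.68%, against 5.96% over all genes) and 16 lower (3.24%, against 3.35%). Both shares are near those of all genes. EPHA2 in Müller cells measured 22.6 and 25.8 CPM in the AAV eyes against 5.76 and 4.84 CPM in the vehicle eyes (4.59-fold). At week 4, however, the vehicle animals measured 23.0 and 11.8 CPM and the AAV animals 14.8 and 15.1 CPM, so the vehicle animals alone covered a similar range. EPHA2 in rods measured 1.71 and 1.18 against 0.132 and 0.300 CPM (6.80-fold), in cones 1.42 and 0.614 against 0.151 and 0.166 CPM (6.07-fold) and in bipolar cells 37 against 6 UMIs (5.26-fold). At week 4 the order was the other way, with 0.381 and 0.149 CPM in AAV against 0.884 and 0.635 CPM in vehicle rods and 0.182 and 0.124 against 0.494 and 0.518 CPM in bipolar cells, although the difference between weeks was not called in either (edgeR adjusted p = 0.0912 and 0.213). The week 2 vehicle values of EPHA2 in rods and cones rest on few UMIs. Its levels in rods and cones lay far below those in Müller cells of the same eyes. Whether the differences in these classes are separate from that in Müller cells was not tested. EPHB6 in Müller cells measured 6.77 and 9.97 against 2.13 and 1.72 CPM (4.47-fold), with week 4 vehicle animals at 7.76 and 3.53 CPM.

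Other week 2 differences lay, among others, in the microglia and macrophage class, astrocytes, RGCs and pericytes. In the microglia and macrophage class, PLXNC1 measured 428 and 535 CPM in the AAV eyes against 103 and 119 CPM in the vehicle eyes (4.29-fold, 281 against 40 UMIs). Of the gated nuclei, 97 and 70 of 111 and 85 in the AAV eyes and 40 and 47 of 85 and 81 in the vehicle eyes lay in a microglia and macrophage cluster, and these held PLXNC1 at 448 and 607 against 152 and 145 CPM. PLXNA2 there measured 130 and 176 against 45.7 and 10.8 CPM (5.43-fold, 89 against 10 UMIs). PLXNC1 thus stood higher in the AAV than in the vehicle group at both weeks. In astrocytes EPHA6 measured 7.91 and 6.16 CPM in the AAV eyes against 28.3 and 31.0 CPM in the vehicle eyes (4.03-fold lower). SEMA3B in RGCs measured 3.52 and 5.06 against 1.01 and 1.44 CPM (3.32-fold, 29 against 9 UMIs). Pericytes held EFNA5 at 36 against 6 UMIs (4.82-fold) and SLIT3, lower in the AAV eyes, at 6 against 55 UMIs.

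Whether the AAV difference itself changed between weeks was tested over all 6 animals with the interaction of treatment and week in edgeR, which assumes that the week 2 animals vary like those of week 4. Of 365 tests of members, 3 were called higher at week 4 and 3 lower (0.822% each, against 0.222% and 0.312% over all genes). They lay in astrocytes, where 0.517% of all genes were called higher and 0.784% lower, in Müller cells (0.99% and 1.41%) and in the microglia and macrophage class (0.669% and 1.04%). SEMA3D in astrocytes had 9.49 and 9.24 CPM in the week 2 AAV eyes against 25.3 and 19.6 CPM in the vehicle eyes, below vehicle where it was above at week 4, and the log2 difference between weeks was 4.30 ± 0.44 (adjusted p = 0.00559). SEMA4D, the ligand of plexin B1, moved the other way: in astrocytes it measured 542 and 775 against 180 and 176 CPM at week 2 and 191 and 190.1 against 314 and 258 CPM at week 4, and its difference between weeks was -2.30 ± 0.28 (adjusted p = 0.0100). Both of these were called in every leave-out and alternative. In Müller cells SEMA4D measured 245 and 506 CPM in the AAV eyes against 188 and 188 CPM at week 2 and 139 and 152 against 230 and 226 CPM at week 4 (-1.67 ± 0.20, adjusted p = 0.0119), and the call was lost without the second AAV eye of week 2 (0.0562). SEMA6D in Müller cells (-1.55 ± 0.28, adjusted p = 0.0358), EFNA1 in Müller cells (1.35 ± 0.27, adjusted p = 0.0445) and ROBO2 in the microglia and macrophage class (2.23 ± 0.34, adjusted p = 0.0110) made up the rest. Each of these 3 was lost in at least 1 leave-out. The same week 4 vehicle retinas enter this test and the week 4 comparison.

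Other genes of the guidance pathways, from lists of co-receptors, related ligands and effectors, were counted at week 4 in the same fits. Both neuropilin genes rose in the microglia and macrophage class, the 2 calls among 18 tests: NRP1 measured 1043 and 976 CPM in AAV against 117 and 66.4 CPM in vehicle retinas (log2 3.63, adjusted p = 9.96e-06), and NRP2 measured 397 and 450 against 68.5 and 83.0 CPM (log2 2.62, adjusted p = 0.000114). In the nuclei that gate and cluster both named, NRP1 measured 1094 and 1029 against 130 and 80.7 CPM, the vehicle values from 6 and 5 UMIs. NRP2 measured 425 and 471 CPM in AAV retinas there, where vehicle retinas had 3 and 7 UMIs. The shifts in nuclei numbers and markers of this class, given above, apply here as well, and their part was not tested. Over all genes, 4.43% of these tests were called higher and 3.65% lower. The list of netrins and their receptors also held NTNG1, NTNG2, FLRT1, FLRT2, FLRT3, RGMA, RGMB and DRAXIN. It had 3 calls higher and 18 lower among 124 tests (2.42% and 14.5%), 5 of the lower ones in rods and 8 in Müller cells. NTNG1 gave 3 of the lower calls, and NTNG2, FLRT1, FLRT2 and FLRT3 gave 1 each. DCC, the attractant netrin receptor, fell in 3 classes, among them astrocytes at 41.7 and 39.7 against 143 and 143 CPM (log2 -1.74), and UNC5D, a repellent netrin receptor, was higher in 1 class and lower in 3. Semaphorin and plexin partners had 5 higher and 7 lower among 47 tests (10.6% and 14.9%), with CHL1, an adhesion molecule of the L1 family, higher in 1 class and lower in 2. TYROBP, a signalling adaptor of myeloid cells, made 3 of the 5 higher calls, in rods, cones and bipolar cells, and it is also one of the microglia and macrophage markers, whose sum was higher in week 4 AAV than in vehicle retinas in each of these classes. Semaphorin and plexin effectors had 9 higher and 11 lower among 145 tests (6.21% and 7.59%). RND3, which binds plexins, rose in rods, amacrine cells, astrocytes and Müller cells, where it measured 55.2 and 58.0 against 13.3 and 10.5 CPM (log2 2.25, adjusted p = 0.000128). DPYSL5, of the collapsin response mediator family, fell in rods, Müller cells and astrocytes. Ephrin and Eph effectors had 5 higher and 8 lower among 146 tests (3.42% and 5.48%), with FYN, a Src family kinase, higher in 2 classes and GRIP1, a scaffold that binds ephrin-B tails, lower in 2. Slit and Robo effectors had 3 higher and 13 lower among 142 tests (2.11% and 9.15%). ABLIM3, an actin-binding LIM protein, fell in 4 classes, among them Müller cells at 296 and 310 against 748 and 903 CPM (log2 -1.45), and DSCAM, an adhesion receptor that spaces retinal neurites in mouse, fell in rods, Müller cells and astrocytes.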

How the data were processed

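Single nuclei were profiled from frozen pig retinas with 10x GEM-X 3' chemistry, 4 lanes per retina. The authors aligned reads with Cell Ranger 8.0.0 to Sscrofa11.1 with EGFP added and deposited raw UMI counts per gene and filtered barcode, without normalization. Their smallest barcode holds 500 UMIs. Here nuclei were kept by a mixture model of mitochondrial share against genes detected at a posterior of 0.75, and no doublet caller was run. Each nucleus took a class from 140 of 151 listed markers found in the files, by its log likelihood ratio over background (at least 2 and 1.5 above the next class, with 2 own markers, or 4 for photoreceptors). Nuclei with several classes above 8 were set aside. These limits were set after seeing the data. Of gated nuclei that lay in a cluster with a class name (80 clusters in all), 95.13% had the same class by both. With unnamed clusters counted, it was 91.37% in rods, 85.44% in astrocytes, 82.46% in microglia and macrophages and 66.81% in T and NK nuclei.

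UMIs were summed per class and retina, or per animal where stated. edgeR 4.0.16 in R 4.3.3 (glmQLFit and glmQLFTest, TMM scaling, filterByExpr) gave log2 changes and Benjamini-Hochberg adjusted p over all genes of a class, with a threshold of 0.05. A class needed 30 nuclei in each sum. The study's test per nucleus was replaced because nuclei of 1 retina are not replicates. Alternatives were DESeq2 1.42.0, its size factors in edgeR, no filter, all barcodes, clusters, all 6 animals and leaving out each replicate. Pipelines were tested on simulated data. At 2 animals per group, p-values rest on the spread between those animals, which edgeR estimates with information shared across genes.

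The members, marker lists and pathway lists were chosen with earlier results of these data known. Named are up to 3 members per class by size of change among those called at week 4 without overlap, up to 3 by difference in vehicle, up to 3 called between weeks, up to 2 per class at week 2, their partners, and up to 2 pathway genes per list by number of classes. Further members named singly were chosen after their values were seen. Promoters are from RefSeq, and 1 of them is not reported here. Some animals of the week 4 cohort were killed a few days early, and the labels do not say which. The depth per retina is in the text, and counting error limits classes with few UMIs.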

Additional observations from a re-analysis of the deposited data

Results flagged for a closer look

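In 6 cases the AAV difference at week 4 was not that at week 2, by edgeR's test of the interaction over 6 animals, on the log2 scale. Higher at week 4 were SEMA3D in astrocytes (4.30, adjusted p = 0.00559), ROBO2 in the microglia and macrophage class (2.23, adjusted p = 0.0110) and EFNA1 in Müller cells (1.35, adjusted p = 0.0445). Lower at week 4 were SEMA4D in astrocytes (-2.30, adjusted p = 0.0100), SEMA4D in Müller cells (-1.67, adjusted p = 0.0119) and SEMA6D in Müller cells (-1.55, adjusted p = 0.0358). At week 2 the eyes of the single AAV animal differed from one another in SEMA4D, with 245 and 506 CPM in Müller cells and 542 and 775 CPM in astrocytes, and in ROBO2 of the microglia and macrophage class, with 481 and 1125 CPM. Leaving out 1 sample ended the EFNA1 call in 4 cases (0.0532 to 0.111), and DESeq2 gave 0.0765. The SEMA6D call ended without the second AAV eye of week 2 (0.0551) or vehicle replicate 1 of week 4 (0.0737), and the ROBO2 call ended in leave-outs at 0.0504 to 0.0821. With 1 animal per group at week 2, the time of sampling and the animal cannot be told apart.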

How the results depend on the processing

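None of the 46 week 4 or 6 between-week calls changed sign in an alternative that tested it, but the class calls of SEMA4G in vehicle did with clusters, from 1.85 to -0.17 (log2) in rods and from 1.68 to -0.27 in cones. Recomputed week 2 values of the members named stayed within the spread of the eyes in 123 cases and moved beyond it in 18, without a change of sign. The balance of week 4 calls turned: 17 higher and 14 lower without vehicle replicate 2. The pathway genes were not run under the alternatives of scaling, filter and left-out replicates. At week 4, the 19 members called higher became 2 with all 6 animals and week as a term and 32 without the low-count filter, with 16 to 27 when a replicate was left out. The 27 called lower became 3 and 43 under the same settings, with 14 (without vehicle replicate 2) to 66 (without AAV replicate 1). DESeq2 called 19 and 39, its size factors 19 and 27, all barcodes 23 and 32, and clusters 22 and 32 in 8 classes, without the microglia and macrophage class, against 16 and 25 by the gate in the same 8. Shares over all genes moved with the setting too. In rods, 6.37% higher and 6.48% lower became 7.05% and 7.8% with DESeq2, and 0.508% and 0.00454% with all 6 animals. In Müller cells, 11.3% and 11.2% became 7.72% and 7.51% with DESeq2, and 3.59% and 2.13% with all 6 animals. The other counts of members in this paragraph stand without such shares. They therefore do not tell a shift of the members from a shift of all genes. Of the 46 calls, 3 were kept under every alternative in which they were tested, and 1 of these, PLXNC1 in the microglia and macrophage class, was not tested with clusters. The 3 higher and 3 lower calls between weeks became 5 and 12 with DESeq2 and 11 and 22 without the filter, and 1 to 12 and 1 to 25 in leave-outs. Class calls in vehicle, 171 in all, became 158 with DESeq2, 108 at a 4-fold limit and 155 to 167 without 1 animal. The 33 members higher at week 2 became 18 with at least 50 UMIs and 19 at 3-fold, and the 16 lower became 6 and 5, with 35 to 43 and 19 to 27 when 1 eye was left out. The difference of a class from the mean of the others rests on classes with few UMIs, so no size is given for it. No paired analysis was possible because the groups share no animal and replicate numbers only name eyes or animals. The causes of these shifts were not tested.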
